A study of Mus musculus with 2 samples.

Results

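Secreted Wnt antagonists are proteins released from cells that keep Wnt ligands from signalling. They were represented here by 7 genes, Wif1, Sfrp1, Sfrp2, Sfrp5, Frzb, Dkk2 and Dkk3, chosen by name among the 31053 genes of the tables, and all 7 were present in both libraries. Wif1 and the secreted Frizzled-related proteins (Sfrp1, Sfrp2, Sfrp5 and Frzb, which is also called Sfrp3) bind the Wnt ligand outside the cell. Dkk2 binds the Lrp5 and Lrp6 co-receptors, and Dkk3 is a divergent member of the Dickkopf family whose effect on Wnt signalling varies with the setting. In the developing eye, Wnt signalling acts in the retinal pigment epithelium (RPE), at the ciliary margin between RPE and retina, and in the surrounding mesenchyme.

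Mouse eye cups of 2 genotypes at e15.5 were compared by single-cell RNA-seq, with 1 library each. The control was Myrf fl/fl, with loxP sites in both copies of Myrf, and the mutant, Rx>cre Myrf fl/fl, carries the same floxed copies and in addition a Cre recombinase driven by Rx, a gene of the early eye field, from which both retina and RPE arise. Each library held 3 pooled eye cups with the cornea, lens and optic nerve taken off. No Cre-only control was among the libraries used here. The question was which transcripts change in the eye when Myrf, the gene of a transcription factor made in the RPE, is deleted.

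The tables held 132436812 UMIs (unique molecular identifiers, each counting 1 captured transcript) in 13017 control barcodes and 135678970 UMIs in 13880 mutant barcodes. After filtering, 11518 control and 12576 mutant cells were kept, with median depths of 9799.5 and 8938.5 UMIs, and 59 kept barcodes occurred in both libraries. A UMI from a Y-linked gene was found in 0.0260% of control cells and 41.7% of mutant cells, and an Xist UMI in 71.7% and 27.4%. The pools thus differed in sex as well as genotype, and these cannot be told apart in values over all cells. For some results, values are also given for cells with an Xist UMI and no Y-linked UMI, which leaves out control cells too. Of the kept cells, 20.3% and 19.8% fell in clusters that were left unnamed, most of them shallow. With 1 library per genotype, no test between genotypes is possible, and all intervals given here are exact 95% intervals that cover counting error only. Levels are given as CPM, the UMIs of a gene scaled to a total of 1e+06 in the class. A gene counted as measured in a class when it had at least 20 UMIs over both libraries, and as past the threshold when the CPM of the 2 libraries differed by at least 1.5-fold. In pooled classes, fewer expressing cells and less RNA per cell cannot be told apart from the CPM alone.

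Cell classes were rebuilt by clustering with the antagonists, the other Wnt pathway genes and the marker genes left out. The 4 classes compared between genotypes were RPE-like cells (359 control and 189 mutant), retinal progenitor-like cells (2343 and 3469), ciliary margin-like cells (13 and 20) and periocular mesenchyme-like cells (2792 and 1982). Of 13 RPE markers, 12 were detected in control and 11 in mutant RPE-like cells. Rpe65, a late visual cycle enzyme, was at 0 in both libraries, and Rgr was at 0 in the mutant. In the RPE-like cells Myrf went from 78.4 control CPM to 29.8 mutant CPM, a ratio of 0.380 (0.279 to 0.508). These libraries read the 3′ ends of transcripts, and where the deleted part lies is not given in the sources used here, so the remaining Myrf UMIs do not measure the extent of deletion.

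The genes lie apart in the genome (GRCm38). Wif1 is at chr10:121033960-121100650 and Sfrp1 at chr8:23411502-23449632. Sfrp2 at chr3:83766321-83774316 and Dkk2 at chr3:132085292-132180304 share a chromosome. Sfrp5 is at chr19:42197971-42202252, Frzb at chr2:80411970-80447625 and Dkk3 at chr7:112116017-112159057. The upstream sequences of Wif1 and Sfrp2 are shown because these genes had opposite patterns within the RPE-like cells described below. They come from RefSeq (GRCm38.p6), where 5 of the 7 genes were matched by symbol, and end at the base before the annotated gene start. Capitals mark matches, on either strand, to the E-box CACGTG of MITF and related factors, its variant form CATGTG, the OTX motif TAATCC, the TCF/LEF motif CTTTGA or the MYRF motif CTGGNAC.

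Wif1 at chr10:121033754-121033959, plus strand: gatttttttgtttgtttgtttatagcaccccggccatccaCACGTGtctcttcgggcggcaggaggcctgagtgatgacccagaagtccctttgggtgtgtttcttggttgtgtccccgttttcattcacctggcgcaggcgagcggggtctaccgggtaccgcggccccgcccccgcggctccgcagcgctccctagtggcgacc
Sfrp2 at chr3:83766071-83766320, plus strand: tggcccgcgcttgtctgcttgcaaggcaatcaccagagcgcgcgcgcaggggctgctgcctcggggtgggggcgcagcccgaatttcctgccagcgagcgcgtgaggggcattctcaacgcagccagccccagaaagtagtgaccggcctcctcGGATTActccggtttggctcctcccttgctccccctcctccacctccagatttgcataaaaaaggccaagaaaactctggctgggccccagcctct

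The Wif1 sequence held 1 match, a CACGTG that began 166 bases before the gene start. The Sfrp2 sequence held 1 match, a GGATTA, which is the OTX motif read on the other strand, that began 96 bases before the start. Among 32851 mouse promoter windows, CACGTG was found in 4.50% at the length of 206 bases, and TAATCC in 6.25% at 250 bases. The motifs with no match in these sequences were found at 250 bases in 12.3% (CATGTG), 13.8% (CTTTGA) and 16.1% (CTGGNAC) of windows, and no match says only that these letters are not in these windows. A match in the letters is a description and not a measured binding site.

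Each antagonist had its own distribution over the cell classes, and the leading class was the same in both libraries for all 7. In the control library 93.3% of Dkk2 UMIs were in periocular mesenchyme-like cells, and 71.8% of Sfrp2 and 65.2% of Dkk3 UMIs were in retinal progenitor-like cells. Sfrp1 UMIs were divided between RPE-like cells (36.6%), mesenchyme-like cells (27.8%) and progenitor-like cells (23.5%), although the RPE-like cells were 3.12% of kept control cells. Wif1 UMIs lay in the mesenchyme-like cells (64.5%) and RPE-like cells (24.4%).

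**Figure D1:**
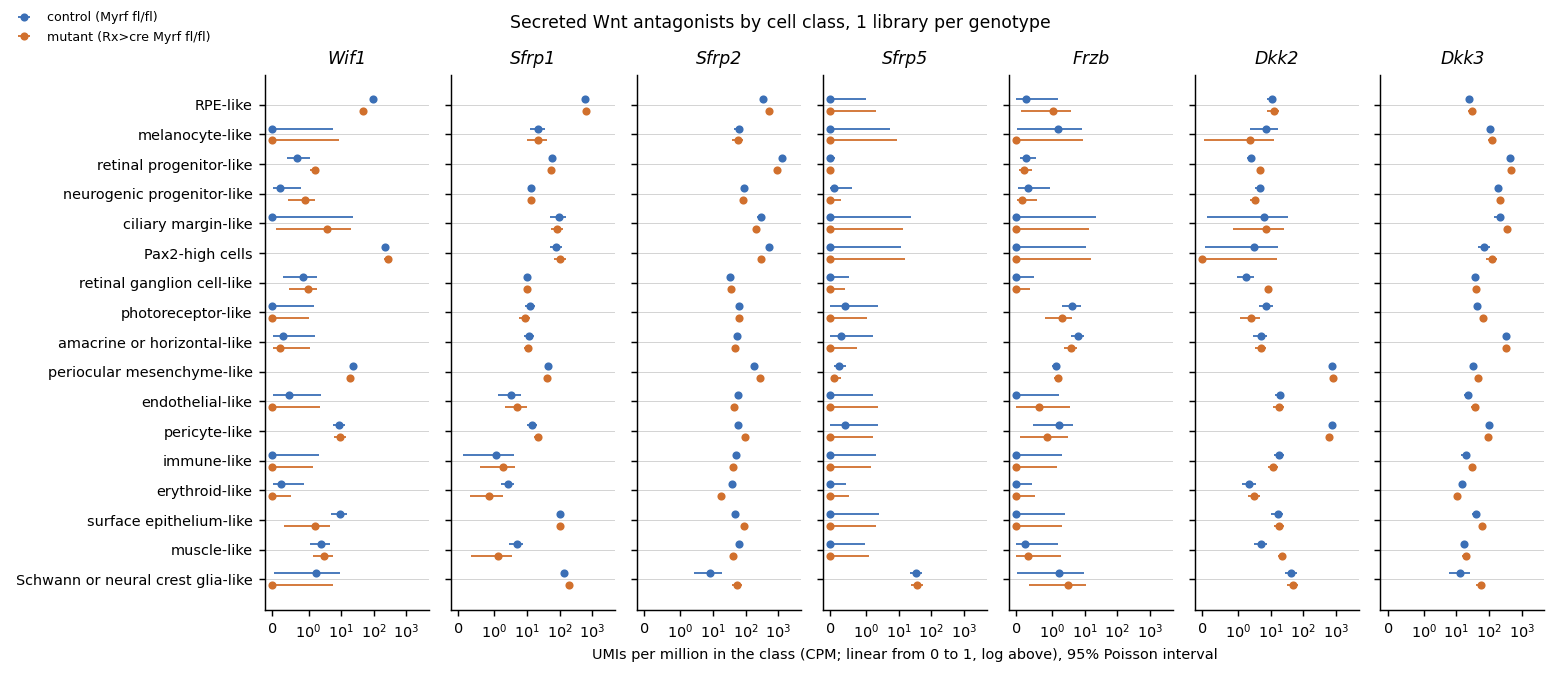
Level of each antagonist (panels) in each cell class (rows) as CPM, linear from 0 to 1 and logarithmic above, for the control library (blue) and the mutant library (orange), with bars for the exact 95% Poisson interval. Sfrp1 peaks in RPE-like cells, Sfrp2 and Dkk3 in retinal progenitor-like cells, Dkk2 in periocular mesenchyme-like cells, and Sfrp5 in Schwann or neural crest glia-like cells.

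Wif1, which binds Wnt ligands through its WIF domain, was highest in a small group of Pax2-high cells described below, at 228 control and 265 mutant CPM. RPE-like cells followed with 98.0 CPM (88.2 to 109) in control cells and 46.6 CPM (37.3 to 57.5) in mutant cells. Periocular mesenchyme-like cells had 23.6 and 19.2 CPM. These 3 classes stood in this order in both libraries, with each ratio to the next class above 1 by its interval (2.32, 1.78 to 2.99, for Pax2-high over RPE-like cells in the control). Retinal progenitor-like cells had 0.693 and 1.52 CPM, and photoreceptor-like and immune-like cells had no Wif1 UMI in either library.

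Sfrp1 was at 619 CPM (594 to 645) in control RPE-like cells and 661 CPM (625 to 699) in mutant ones. The next class, Schwann or neural crest glia-like cells, had 137 and 187 CPM, and the RPE-like level was 4.51 times this (3.62 to 5.69) in the control and 3.53 times (2.93 to 4.29) in the mutant. Surface epithelium-like cells (106 and 105 CPM), ciliary margin-like cells (93.1 and 85.3 CPM) and Pax2-high cells (79.9 and 103 CPM) followed, and neighbours in this order were not distinguished by counting error. Retinal progenitor-like cells had 57.1 and 53.4 CPM. Melanocyte-like cells, the other pigmented class, had 22.1 and 21.1 CPM, so that RPE-like cells exceeded them 28.0-fold (17.0 to 50.2) in the control and 31.3-fold (16.4 to 68.6) in the mutant.

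Sfrp2 was at 1328 CPM in control and 945 CPM in mutant retinal progenitor-like cells, and a UMI was found in 95.8% and 91.6% of them. Neurogenic progenitor-like cells, the step after in the same lineage, had 92.9 and 86.4 CPM. Erythroid-like cells, which should lack the gene, held an Sfrp2 UMI in 8.48% and 7.48% of cells, whose median depth was 17037 and 16883.5 UMIs, and the 5 richest of them held 53.3% and 73.4% of the Sfrp2 UMIs. Their UMIs per cell are set beside low levels below as an estimate of RNA from other cells, whether free or in mixed droplets, which were not told apart. Retinal ganglion cell-like cells had 33.8 and 36.2 CPM, beside 37.5 and 17.7 CPM in the erythroid-like cells.

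Sfrp5 and Frzb were sparse. Sfrp5 had 35 UMIs in all kept control cells and 27 in all kept mutant cells, of which 21 and 24 were in the 38 Schwann or neural crest glia-like cells of each library (34.7 and 37.2 CPM). It had no UMI in RPE-like, retinal progenitor-like or ciliary margin-like cells of either library. Frzb had 104 and 91 UMIs in all, and its highest level was in amacrine or horizontal-like cells at 6.08 and 3.84 CPM. In the control, the photoreceptor-like level of Frzb (4.07 CPM) was not distinguished from it (ratio 1.49, 0.674 to 3.55). By number, 52.9% of control Frzb UMIs were in the mesenchyme-like cells, at 1.34 CPM.

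Dkk2 was at 782 CPM in control and 796 CPM in mutant periocular mesenchyme-like cells. Pericyte-like cells had 750.2 and 615 CPM, and the difference between these neighbours was within counting error in the control (1.04, 0.994 to 1.09) and above it in the mutant (1.29, 1.23 to 1.37). The next class, Schwann or neural crest glia-like cells, was lower at 43.0 and 48.0 CPM. Dkk3 was at 445 and 459 CPM in retinal progenitor-like cells. Amacrine or horizontal-like cells had 335 and 326 CPM, ciliary margin-like cells 211 and 359 CPM, and neurogenic progenitor-like cells 194 and 218 CPM, so that unlike Sfrp2 the Dkk3 level in neurogenic progenitor-like cells was within a few-fold of the progenitor-like level.

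Genes with the most similar distribution to each antagonist were listed over the 31 clusters that had at least 50 control cells, as Pearson correlations of log2(CPM + 1). All points come from 1 library and differ in depth, so the values are descriptions. Dkk2 was most like Lum (r = 0.97), Ctsk (0.97) and Dcn (0.96), of which Lum and Dcn encode matrix proteoglycans. Sfrp2 was most like Gm26771 (0.90), Col9a1 (0.89) and Slc1a3 (0.88), a glutamate transporter. Wif1 was most like Clu (0.90), Slit3 (0.88) and Pdgfrl (0.87), Sfrp1 like Wfdc2 (0.89), Fam213a (0.84) and Efemp1 (0.81), and Dkk3 like Fgf9 (0.85), Plppr5 (0.83) and Oraov1 (0.82). For Frzb the leading genes were Pxylp1 (0.74), Ptprt (0.71) and Tenm1 (0.70) on 103 UMIs. For Sfrp5 they were Gna14 (0.65), Lrp1b (0.62) and Notum (0.60) on 14 UMIs. The limit of 50 cells left out the glia-like cluster of 38 control cells, which held 21 of the 35 control Sfrp5 UMIs, and the cluster of 49 control cells that holds the Pax2-high cells, so the lists for Sfrp5 and Wif1 do not cover the class where each was highest. Among the antagonists themselves, Wif1 and Dkk2 had r = 0.70, Sfrp1 and Sfrp2 0.66, and Dkk2 and Dkk3 -0.40.

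At a finer resolution the RPE-like cells separated into 2 sub-groups, named here by leading genes. The Col8a1-high sub-group (182 control and 110 mutant cells) was led by Ttr, Slc16a8, Col9a3 and Col8a1, and the Pcp4-high sub-group (177 and 79) by Pcp4, Slc7a11 and Wif1. Over both libraries Slc16a8, a lactate transporter of the RPE, was at 339.7 CPM in the first and 0.326 CPM in the second, Otx2 at 603 and 252 CPM, and Pax6 at 77.2 and 406 CPM. The melanosome gene Pmel was high in both, at 8192 and 7537 CPM. Median depths were lower in the Col8a1-high cells, at 4871.5 control and 2921 mutant UMIs, against 11820 and 9089 in the Pcp4-high cells. Erythroid markers summed to 14284 control and 2936 mutant CPM in Col8a1-high cells and to 4601 and 6981 CPM in Pcp4-high cells, and retinal progenitor markers to 768 and 1102 CPM and to 1088 and 1129.9 CPM. Ciliary margin markers summed to 959 and 1024 CPM in Col8a1-high and to 1611 and 1543 CPM in Pcp4-high cells. The ciliary margin-like cells had 1856 and 2395 CPM. Over both libraries, the margin marker Gja1 was at 393 CPM in Col8a1-high and 1133 CPM in Pcp4-high cells. Msx1 (0 and 0.652 CPM) and Wfdc1 (1.19 and 6.19 CPM) were low in both. Ttr was at 6791 and 39.1 CPM.

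Wif1 and Sfrp2 divided between these sub-groups in opposite ways, though neither was used to form them. In Pcp4-high cells Wif1 had 165 control and 95.6 mutant CPM, and in Col8a1-high cells at 2.59 CPM (4 UMIs) and 2.07 CPM (2 UMIs). The Pcp4-high level was 63.9 times (24.7 to 236) the Col8a1-high level in the control and 46.3 times (12.4 to 388) in the mutant. Sfrp2 ran the other way, with 705 CPM in control and 910.3 CPM in mutant Col8a1-high cells against 89.0 and 105 CPM in Pcp4-high cells. The Col8a1-high level of Sfrp2 was thus 7.92 times the Pcp4-high level in the control and 8.70 times in the mutant. Sfrp1 was high in both sub-groups, at 771 and 782 CPM in Col8a1-high and 511 and 528 CPM in Pcp4-high cells. The sub-groups were formed from these same cells, so the contrasts are descriptions.

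Cell by cell, the counts depended on depth, which differed between the sub-groups. With all UMIs, 32 control cells had both genes, 27 had Wif1 alone, 162 had Sfrp2 alone and 138 had neither. Within the control Pcp4-high cells these numbers were 30, 27, 37 and 83, and Sfrp2 had 1.10 UMIs per cell there beside 0.618 in erythroid-like cells. When each cell was thinned to 2000 UMIs, which left 244 control and 121 mutant RPE-like cells, 27 control cells had a Wif1 UMI and 3 of these also had an Sfrp2 UMI, while 88 cells had Sfrp2 alone. In the mutant, 2 cells had both, 5 had Wif1 alone and 50 had Sfrp2 alone, against 14, 16 and 82 with all UMIs.

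**Figure D2:**
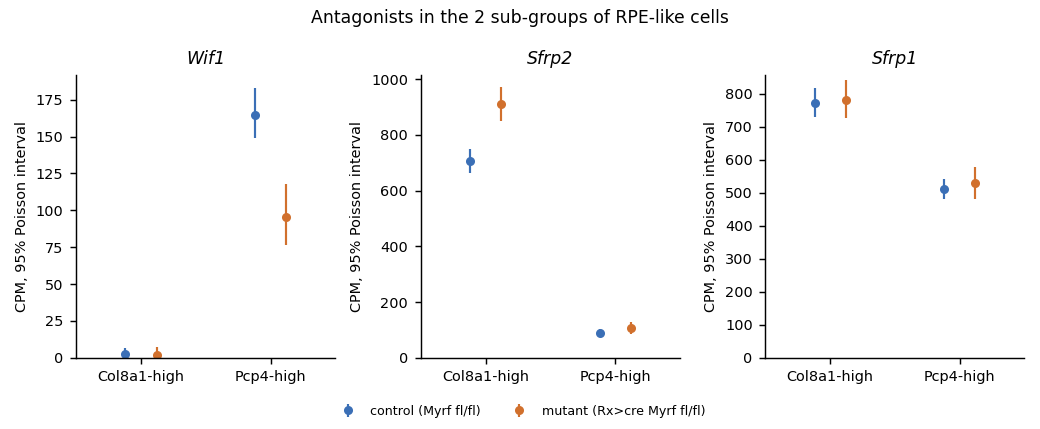
CPM of Wif1, Sfrp2 and Sfrp1 in the Col8a1-high and Pcp4-high sub-groups of RPE-like cells, for the control (blue) and mutant (orange) libraries, with exact 95% Poisson intervals. Wif1 lies in the Pcp4-high and Sfrp2 in the Col8a1-high sub-group in both libraries, and Sfrp1 is high in both sub-groups.

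Between genotypes, 5 antagonists were measured in RPE-like cells, of which 1 (Wif1) was lower and 1 (Sfrp2) higher in the mutant by at least 1.5-fold. Of all 10948 genes measured there, 8.57% were lower and 5.07% higher by that size, so the counts stand on few genes. The median log2 ratio was 0.22 over the 5 antagonists and -0.06 over all genes. Wif1 had 366 control and 86 mutant UMIs, and the ratio of its levels was 0.475 (0.371 to 0.603). Single cells weighed heavily: the 5 richest cells held 26.2% of control and 53.5% of mutant Wif1 UMIs, and without them the log2 ratio was -1.70. With each cell weighted equally it was -0.34, which is under the threshold. In cells with an Xist UMI and no Y-linked UMI the log2 ratio was -1.31. That setting kept 186 of 359 control and 41 of 189 mutant cells, so it left out many control cells too. Of those kept, 106 and 25 were Pcp4-high. Over all RPE-like cells, a Wif1 UMI was found in 16.4% of the control cells and 15.9% of the mutant cells, and after thinning in 11.1% and 5.79%. The mutant RPE-like cells were shallower, with medians of 4199 against 7351 UMIs. Within the Pcp4-high cells the ratio was 0.578 (0.451 to 0.735), and Pcp4-high cells made up 49.3% (44.0 to 54.6) of the class in the control and 41.8% (34.7 to 49.2) of it in the mutant.

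Sfrp2 in RPE-like cells had 344 control CPM (325 to 363) and 527 mutant CPM (494 to 561), a ratio of 1.53 (1.41 to 1.67). Neither sub-group alone passed the threshold, with ratios of 1.29 (1.18 to 1.41) in Col8a1-high and 1.18 (0.907 to 1.51) in Pcp4-high cells, and Col8a1-high cells held 41.4% of the control and 52.4% of the mutant UMIs of the class. The log2 ratio was 0.62 in all cells, -0.01 with a mitochondrial share of at most 5% and 0.17 with cells over 20000 UMIs left out. It was 0.16 in cells with an Xist UMI and no Y-linked UMI (186 control and 41 mutant cells). Of those kept, 106 and 25 were Pcp4-high, the sub-group with the lower Sfrp2 level. Erythroid-like cells had Sfrp2 UMIs equal per cell to 17.3% of the control and 5.63% of the mutant value. Erythroid markers were higher in control RPE-like cells (8608 against 4861 CPM) and retinal progenitor markers in mutant ones (1116 against 956 CPM), and their part in the result was not tested.

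Sfrp1 in RPE-like cells had a ratio of 1.07 (0.996 to 1.15), the narrowest interval of the 5, although its log2 ratio went from 0.10 to -0.30 in cells with an Xist UMI and no Y-linked UMI. Dkk2 was at 10.7 and 12.5 CPM, with 5 cells holding 87.5% and 91.3% of its UMIs, and its log2 ratio ran from -1.27 in the Pcp4-high cells alone (18 and 3 UMIs) to 0.85 with doublets kept. Dkk3 was at 23.8 and 30.3 CPM, and erythroid-like cells had 100.2% of the control and 57.6% of the mutant value in UMIs per cell. In CPM the erythroid-like cells, which are deeper, had 15.1 and 10.4. The log2 ratio of Dkk3 was 0.35, and it was 1.18 on 25 and 26 UMIs with cells over 20000 UMIs left out. In cells with an Xist UMI and no Y-linked UMI it was 0.78, and with each cell weighted equally it was -0.14. Fewer than 20 UMIs of Sfrp5 and Frzb were found.

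**Figure D3:**
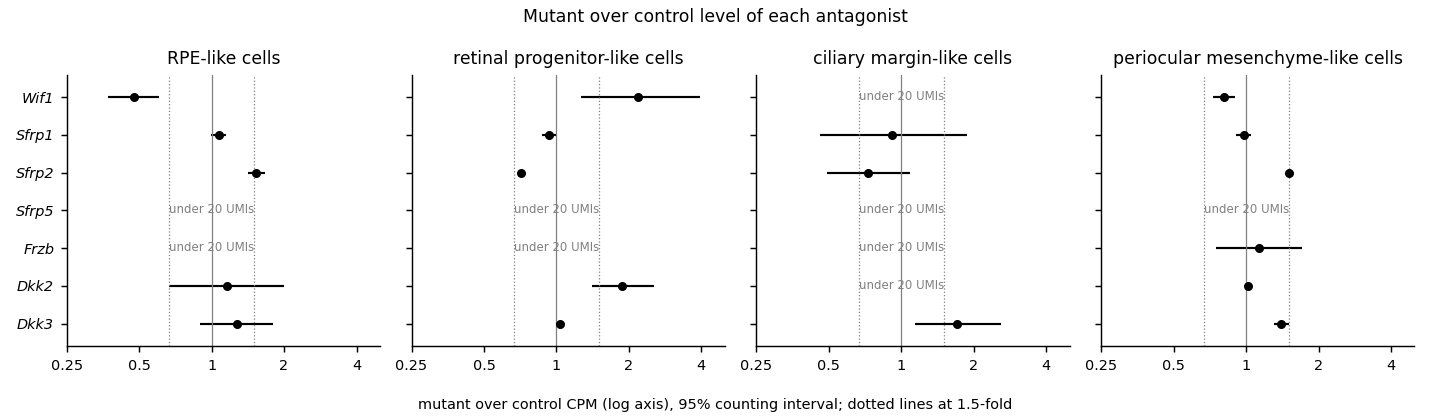
Mutant over control CPM of each antagonist (rows) in the 4 classes (panels) on a log axis, with exact 95% counting intervals and dotted lines at 1.5-fold in each direction. Wif1 is lower in RPE-like cells (0.475), Sfrp2 is higher in RPE-like (1.53) and mesenchyme-like cells (1.51) and lower in progenitor-like cells (0.712), where it lies within the lines.

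In retinal progenitor-like cells 5 antagonists were measured, of which 2 (Wif1 and Dkk2) were higher by at least 1.5-fold and none was lower. Of 13899 genes measured in this class, 3.53% were higher and 2.04% lower. Both calls were on low levels. Wif1 had 18 control and 55 mutant UMIs, with 66.7% and 58.2% of them in 5 cells, and a UMI was found in 0.469% and 0.577% of cells. Cluster 12, 1 of the 4 clusters of the class, held 11 of the control and 25 of the mutant UMIs. With each cell weighted equally the log2 ratio was 0.31, below the threshold, and erythroid-like cells, with 2 UMIs in the control and none in the mutant, had 52.6% of the control value per cell. With that level subtracted the log2 ratio was 2.21, and in cells with an Xist UMI and no Y-linked UMI it was 2.28, against 1.13 in all cells. Dkk2 was at 2.46 and 4.63 CPM, and the erythroid-like cells had 133% of the control and 106% of the mutant value in UMIs per cell, and 2.21 and 3.14 CPM, at a greater depth. The 13 periocular mesenchyme markers summed to 147 control and 178 mutant CPM in the progenitor-like cells, and their part in the Dkk2 ratio was not tested.

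Sfrp2, the antagonist with the most UMIs in this class, was lower in the mutant at a ratio of 0.712 (0.701 to 0.722), within the threshold but away from 1 by counting error. Its log2 ratio was -0.49, and -0.52 in cells with an Xist UMI and no Y-linked UMI. The ratio was similar in each of the 4 progenitor clusters. It was 0.745 in cluster 0 (1348 to 1004 CPM), 0.702 in cluster 2 (1467 to 1030.1 CPM), 0.673 in cluster 6 (1312 to 883 CPM) and 0.720 in cluster 12 (995 to 717 CPM). By cell cycle phase, Sfrp2 was at 1451 CPM in S and 1248 CPM in G2M in the control, and at 1062 and 872 CPM in the mutant, so the S level was above the G2M level and the mutant below the control in each. Dkk3 in the same cells had a ratio of 1.03 (1.01 to 1.06) and Sfrp1 one of 0.935 (0.874 to 1.00). Dkk3 was at 450.4 and 441 CPM in control S and G2M cells, with overlapping intervals.

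Levels also differed by phase in the RPE-like cells. Sfrp2 was at 423 CPM in G1 and 176 CPM in G2M in the control, and at 602 and 344 CPM in the mutant. Wif1 was at 98.3 CPM in G1 and 116 CPM in G2M in the control, and at 40.1 and 70.1 CPM in the mutant. The single intervals overlapped in each library (29.6 to 53.2 and 47.6 to 99.5 CPM in the mutant), which does not show equal levels. Sfrp1 was at 689 and 509 CPM in control G1 and G2M cells. Only 32 control and 18 mutant RPE-like cells were in S phase, and how far phase and sub-group share these differences was not tested.

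The cluster that scored as ciliary margin, a zone between RPE and retina marked by Msx1 and Wfdc1, held 2 kinds of cell and was divided further. One part, called ciliary margin-like here, had Msx1 at 188 CPM, Wfdc1 at 301 CPM and Pax6 at 725 CPM over both libraries, with Pax2 at 42.9 CPM. Of 10 ciliary margin markers in the tables, 9 were detected in each library, and Cdo1 was at 0 in both. The other part (36 control and 25 mutant cells) had Pax2 at 313 CPM, Vax1 at 98.3 CPM and Wnt8b at 147 CPM, with Msx1 at 5.36 CPM and Pax6 at 44.7 CPM. These are called Pax2-high cells. The part with the lower Msx1 share was given this name, so the order of the parts in Msx1 was set by the naming. Pax2 and Vax1 are transcription factor genes of the ventral optic cup and optic stalk.

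Wif1 lay in the Pax2-high cells and not in the ciliary margin-like cells. The Pax2-high cells had 74 control and 62 mutant Wif1 UMIs (228 and 265 CPM), and the ciliary margin-like cells 0 of 161109 and 1 of 281406 UMIs. By the exact 95% interval the Pax2-high level was at least 9.69-fold higher in the control, and the ratio was 12.2 with the 0 set to 3 UMIs. In the mutant the ratio was 74.5 (12.9 to 2991). Dkk3 was the reverse, with 211 and 359 CPM in ciliary margin-like against 70.7 and 124 CPM in Pax2-high cells. Sfrp2 was at 298 and 217 CPM in ciliary margin-like and at 538 and 303 CPM in Pax2-high cells, so that Pax2-high over ciliary margin-like cells was 1.81 (1.31 to 2.54) in the control and 1.40 (0.980 to 2.00) in the mutant. Sfrp1 was not distinguished between them. Of the ligand and response genes, the Pax2-high cells had Wnt7b at 204 CPM, Sp5 at 119.8 CPM and Nkd1 at 224 CPM, against 2.26, 0 and 27.1 CPM in the ciliary margin-like cells. Axin2 was at 44.7 against 11.3 CPM, while Lef1 (42.9 against 56.5 CPM) and Tcf7 (10.7 against 6.78 CPM) had overlapping intervals. These genes were chosen after their values were seen.

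**Figure D4:**
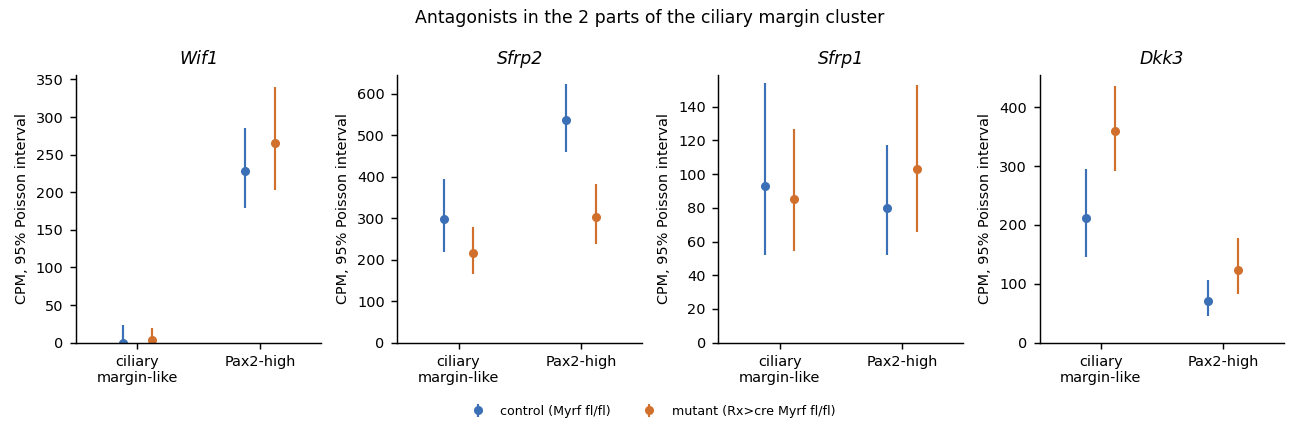
CPM of Wif1, Sfrp2, Sfrp1 and Dkk3 in ciliary margin-like and Pax2-high cells for the control (blue) and mutant (orange) libraries, with exact 95% Poisson intervals. Wif1 is near 0 in ciliary margin-like cells and above 200 CPM in Pax2-high cells in both libraries, and Dkk3 is higher in ciliary margin-like cells.

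Between genotypes, 3 antagonists were measured in ciliary margin-like cells. Of these, 1 (Dkk3) was higher in the mutant by at least 1.5-fold and none was lower, beside 14.2% higher and 10.5% lower of the 3328 genes measured. Dkk3 had 34 UMIs in 13 control cells and 101 in 20 mutant cells, a ratio of 1.70 (1.14 to 2.59). The few cells differed in make-up as well, with Msx1 at 49.7 CPM (8 UMIs) in the control and 267 CPM (75 UMIs) in the mutant. The retinal progenitor markers summed to 3097 CPM in control and 3895 CPM in mutant ciliary margin-like cells, and the part of these in the result was not tested. With at most 5% mitochondrial UMIs the log2 ratio of Dkk3 was 0.12 in place of 0.77, and the call was lost, but this left 3 control and 9 mutant cells with 8 and 43 Dkk3 UMIs. In cells with an Xist UMI and no Y-linked UMI it was 1.46, on 12 control and 2 mutant cells. Sfrp2 had a ratio of 0.728 (0.490 to 1.09) and Sfrp1 one of 0.916 (0.461 to 1.88). The log2 ratio of Sfrp2 was -0.46, and it passed the threshold in several alternatives. It was -0.86 with cells over 20000 UMIs left out and -1.01 at resolution 0.5. Its range was from -1.23 with at most 5% mitochondrial UMIs to -0.34 with the erythroid-like level subtracted. In Pax2-high cells Sfrp2 had a ratio of 0.564 (0.422 to 0.747) and Wif1 one of 1.16 (0.817 to 1.65).

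In periocular mesenchyme-like cells 6 antagonists were measured, of which 1 (Sfrp2) was higher in the mutant by at least 1.5-fold and none was lower, beside 5.85% higher and 2.86% lower of 14773 genes. Sfrp2 had 179.8 control and 272 mutant CPM, a ratio of 1.51 (1.47 to 1.56), which is close to the threshold. An Sfrp2 UMI was found in 69.9% and 79.8% of these cells, and after thinning in 27.1% and 37.6%. The mutant level was higher in all 6 clusters of the class. The ratio was 1.62 in cluster 4 (Osr2, Foxl2), 1.63 in cluster 7, 1.55 in cluster 9 (Tnn, Aspn), 1.68 in cluster 16 (Scx, Tnmd, genes of tendon) and 1.57 in cluster 20, and it was 1.13 (1.02 to 1.26) in cluster 15 (Kera, Aqp1). In cells with an Xist UMI and no Y-linked UMI the log2 ratio was 0.43, below the threshold. Erythroid-like cells had 23.4% of the control and 7.12% of the mutant value per cell, and with this subtracted the log2 ratio was 0.88. The 10 retinal progenitor markers summed to 114 CPM in control and 228 CPM in mutant mesenchyme-like cells, and their part in the result was not tested.

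Dkk2 was the antagonist with most UMIs in the mesenchyme-like cells and its ratio was 1.02 (1.00 to 1.03). It varied more between clusters than between genotypes. Cluster 15 had 1745 control and 1599.6 mutant CPM and cluster 9 had 1576 and 1438 CPM, while the other 4 clusters ran from 369.9 to 532 CPM in the control and from 329.7 to 543 CPM in the mutant. Cluster 15 was 9.71% (8.63 to 10.9) of control and 15.6% (14.0 to 17.3) of mutant mesenchyme-like cells. In 5 of the 6 clusters the mutant was at or below the control (0.827 to 0.954), and in cluster 16 it was above (1.38, 1.30 to 1.47).

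Wif1 in mesenchyme-like cells had a ratio of 0.812 (0.731 to 0.902). Its highest cluster, cluster 4, had 45.7 and 45.5 CPM, a ratio of 0.996 (0.858 to 1.16). Cluster 9 had 32.8 and 22.8 CPM and cluster 7 had 13.6 and 7.89 CPM, and both were lower in the mutant by counting error. In cells with an Xist UMI and no Y-linked UMI the log2 ratio over the class was -0.05. Dkk3 was at 32.4 and 45.4 CPM, a ratio of 1.40 (1.30 to 1.51), and erythroid-like cells had 52.2% and 25.1% of this per cell. With that level subtracted the log2 ratio of Dkk3 was 1.13 in place of 0.49, past the threshold. The erythroid-like Dkk3 level was itself lower in the mutant (15.1 and 10.4 CPM). Dkk3 was highest in retinal progenitor-like cells (445 and 459 CPM). Their markers summed to 114 control and 228 mutant CPM in the mesenchyme-like cells, and their part in the Dkk3 ratio was not tested. The Dkk3 ratio ran from 1.43 to 3.65 over the clusters, with the highest on 15 control and 69 mutant UMIs in cluster 15. Sfrp1 (0.975, 0.906 to 1.05) and Frzb (1.13, 0.746 to 1.71) had intervals that held 1 over the class, although Sfrp1 was lower in the mutant in cluster 4 (0.753, 0.649 to 0.871) and higher in cluster 9 (1.30, 1.08 to 1.57) and cluster 15 (11.2 and 16.8 CPM, with a ratio between 1.06 and 2.13).

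**Figure D5:**
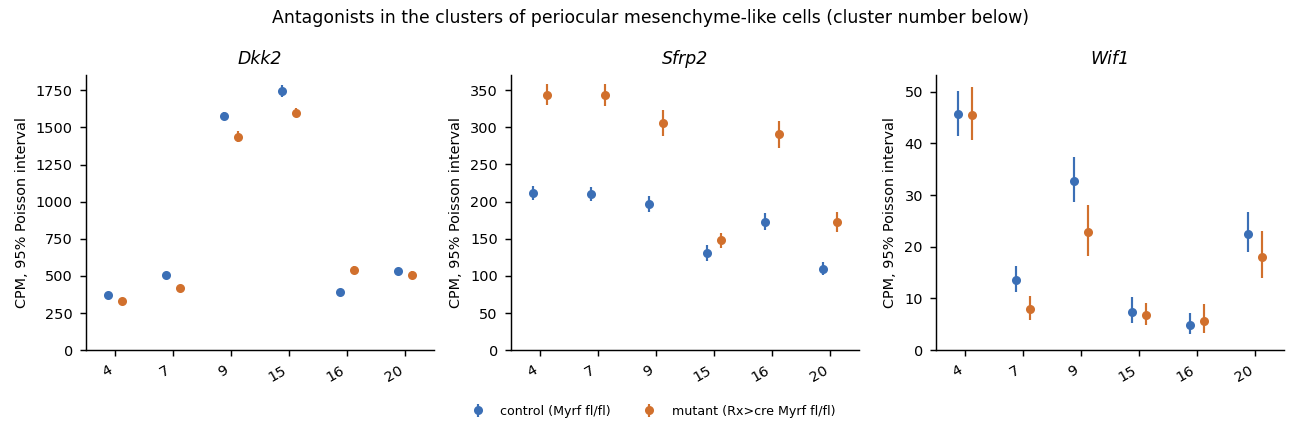
CPM of Dkk2, Sfrp2 and Wif1 in the 6 clusters of periocular mesenchyme-like cells (cluster number on the horizontal axis) for the control (blue) and mutant (orange) libraries, with exact 95% Poisson intervals. Dkk2 is highest in clusters 9 and 15, Sfrp2 is higher in the mutant in every cluster, and Wif1 is highest in cluster 4 at about the same level in both libraries.

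Outside the 4 classes several low levels differed between libraries. Dkk2 had 13 control and 76 mutant UMIs in retinal ganglion cell-like cells, and 68.4% of the latter were in 5 cells. In muscle-like cells it had 19 and 66 UMIs, with 87.9% of the latter in 5 cells. Sfrp2 had a ratio of 1.66 (1.34 to 2.06) in pericyte-like cells, 1.83 (1.38 to 2.45) in surface epithelium-like cells and 0.661 (0.528 to 0.825) in muscle-like cells. Erythroid-like cells had 76.9%, 71.4% and 44.7% of these control values per cell, and 21.5%, 18.8% and 37.4% of the mutant values. In Schwann or neural crest glia-like cells Sfrp2 had 5 control and 35 mutant UMIs (6.56, 2.56 to 21.5) and Dkk3 had 8 and 36 (4.22, 1.93 to 10.5), with 85.7% and 83.3% of the mutant UMIs in 5 cells. Dkk3 was higher in the mutant also in immune-like (1.60, 1.07 to 2.45), endothelial-like (1.57, 1.06 to 2.33) and surface epithelium-like cells (1.55, 1.12 to 2.16), and had a ratio of 1.75 (0.979 to 3.17) in Pax2-high cells, so that a ratio above 1.5 was not limited to the ciliary margin-like cells. Erythroid-like cells had 136%, 77.9% and 35.1% of the control Dkk3 values per cell in the first 3 of these, and 49.9%, 37.1% and 16.0% of the mutant values. Dkk2 in photoreceptor-like cells (18 and 9 UMIs, 0.352, 0.139 to 0.824) and Sfrp1 in muscle-like cells (18 and 4 UMIs, 0.278, 0.0685 to 0.845) were lower. In the erythroid-like cells themselves Sfrp2 had a ratio of 0.472 (0.380 to 0.583) and Sfrp1 one of 0.333 (0.110 to 0.852).

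Other genes of the Wnt pathway were counted from lists of 79 genes that cover ligands, receptors, secretion, other antagonists, the R-spondin arm, transduction and response. In RPE-like cells 45 were measured, 6 higher and 5 lower in the mutant by at least 1.5-fold, with a median log2 ratio of -0.11. Over all genes measured, 5.07% were higher and 8.57% lower, with a median of -0.06. Fzd4, a Frizzled receptor, had 73.6 control and 29.2 mutant CPM (0.397, 0.291 to 0.534). Ccnd1, a cyclin gene that Wnt can induce, was at 153 and 331 CPM (2.17, 1.93 to 2.44). Progenitor-like cells had 3853 and 3942 CPM of Ccnd1, and retinal progenitor markers summed to 956 control and 1116 mutant CPM in the RPE-like cells, and their part in the result was not tested. Fzd5 was at 8.03 and 13.0 CPM (1.62, 0.906 to 2.86), an interval that holds 1. None of the 12 transduction genes passed the threshold. Axin2, a general readout of Wnt signalling, was at 28.9 and 22.7 CPM (0.787, 0.537 to 1.13).

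In retinal progenitor-like cells 54 pathway genes were measured, with 1 higher and 2 lower, beside 3.53% and 2.04% of all genes. Lgr5, an R-spondin receptor, was at 9.50 and 6.04 CPM (0.635, 0.527 to 0.765), and Notum, an enzyme that inactivates Wnt ligands, at 1.65 and 1.05 CPM (0.633, 0.398 to 1.00). Axin2 was at 0.808 and 1.24 CPM (1.53, 0.896 to 2.71). In ciliary margin-like cells 18 were measured, 4 higher and 1 lower, none with 50 UMIs, beside 14.2% and 10.5% of all genes. In mesenchyme-like cells 66 were measured, 6 higher and none lower, beside 5.85% and 2.86% of all genes. Those with at least 50 UMIs were Fzd5 (2.24 to 4.32 CPM, ratio 1.93), Cer1 (0.537 to 1.01 CPM, 1.89), the ligand gene Rspo2 (3.56 to 6.01 CPM, 1.69) and the ligand gene Wnt2b (1.49 to 2.30 CPM, 1.54). Fzd5 was at 150.4 and 149 CPM in progenitor-like cells, whose markers summed to 114 control and 228 mutant CPM in the mesenchyme-like cells, and their part in the Fzd5 ratio was not tested.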

How the data were processed

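Single-cell RNA-seq (10x Genomics 3′ chemistry) of 2 libraries was analysed. For each barcode the deposited tables hold the authors' unnormalized UMI counts of every gene, from reads aligned to mm10. Other time points named in the protocols were not analysed here. Their processing notes name Cell Ranger 7.1.0 and Seurat 4.1.1, whereas the matrix headers name version 3.1.0. The tables held 13017 and 13880 barcodes with at least 500 UMIs.

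Cells with at least 200 genes and at most 15% mitochondrial UMIs were kept, as in the study's methods, and doublets called by Scrublet (424 and 442, at an expected rate of 10%) were removed. The study's limit of 2000 UMIs against doublets was not used, since 79.1% and 80.6% of barcodes exceed it, and it was tried as an alternative. Both libraries were clustered together (scanpy 1.11.5, leidenalg 0.10.2, 1868 variable genes, 30 components, 15 neighbours, resolution 1.0) without batch integration. The antagonists, Wnt pathway genes, markers, haemoglobin, mitochondrial and sex-linked genes and Myrf were left out. Of 34 clusters, 30 were named from marker lists (mean z score of at least 1.0, a limit set after seeing the data) and 4 were not. The cluster that scored as ciliary margin was split by k-means on 5 components of its 500 most variable genes after its make-up was seen, and the RPE-like sub-groups come from resolution 2.0. Of the 2 parts of that split, the one with the lower Msx1 share was named Pax2-high. Rebuilt names may differ from those of the study.

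Levels are summed UMIs scaled to 1e+06 with exact Poisson intervals. Ratios have exact conditional binomial intervals, and shares have Clopper-Pearson intervals. A count of 0 was set to 3 for a fold. Thinning drew 2000 UMIs from each cell that had as many. Pathway genes were named if past 1.5-fold with at least 50 UMIs, up to 6 in each direction, and for each antagonist the 3 most similar genes were named among those with at least 200 control UMIs. The antagonists and lists were chosen with earlier results of these data known. The ratio script was tested on simulated data. A comparison of Sfrp2 with other transcripts is not reported here.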

Additional observations from a re-analysis of the deposited data

Results flagged for a closer look

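Wif1 had ratios of opposite direction in retinal progenitor-like and RPE-like cells. The log2 ratio of mutant over control was 1.13 in the progenitor-like cells and -1.07 in the RPE-like cells. With 1 library per genotype, the difference between these was not tested, and the first rests on 18 control and 55 mutant UMIs. With each cell weighted equally the values were 0.31 and -0.34, both under 1.5-fold. Erythroid-like cells, with only 2 Wif1 UMIs in the control and none in the mutant, had 52.6% of the control progenitor-like value per cell. With this subtracted the progenitor-like value was 2.21. In cells with an Xist UMI and no Y-linked UMI the values were 2.28 and -1.31, the second on 186 control and 41 mutant cells.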

How the results depend on the processing

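No paired analysis was possible because each genotype had 1 library. Over the alternatives, 246 log2 ratios of single antagonists were recomputed. Of these, 20 changed sign and 37 changed side of the 1.5-fold threshold. Of ratios past the threshold, 1 changed sign, Sfrp2 in RPE-like cells (-0.01 with at most 5% mitochondrial UMIs). The number of antagonists past 1.5-fold was not stable, and the cause was not tested. In RPE-like cells it was 2, became 3 with doublets kept (Dkk2 at 0.85), and became 1 with at most 5% mitochondrial UMIs, with thinning or without the 5 richest cells, and 0 with equal cell weights, with cells over 2000 UMIs left out or in the Col8a1-high cells alone. It stayed at 2 with cells over 20000 UMIs left out and in Xist-positive cells lacking Y-linked UMIs, but with Dkk3 (1.18 and 0.78) in place of Sfrp2 (0.17 and 0.16), and in the Pcp4-high cells alone with Dkk2, lower (-1.27 on 18 and 3 UMIs), in place of Sfrp2. In retinal progenitor-like cells it was 2, and became 1 with equal weights (Dkk2, 0.97). It was 1 with thinning (Dkk2, 0.80) and in the largest cluster (Dkk2, 0.85), where Wif1 had too few UMIs to be measured, and with the erythroid-like level subtracted (Wif1, 2.21), where Dkk2 had. With cells over 2000 UMIs left out neither was measured, and the 1 was Sfrp2, lower in the mutant (-0.88). In ciliary margin-like cells it was 1 (with at most 5% mitochondrial UMIs Sfrp2, at -1.23 on 3 control and 9 mutant cells, in place of Dkk3), and became 3 with cells over 20000 UMIs left out, and 2 with doublets kept, at resolution 0.5 or 2.0, with equal weights, in Xist-positive cells lacking Y-linked UMIs (12 control and 2 mutant cells) or with the Pax2-high cells included. In mesenchyme-like cells it was 1, and became 2 with cells over 20000 UMIs left out or in the largest cluster (adding Frzb, at 0.85 and 0.79) or with the erythroid-like level subtracted (adding Dkk3, at 1.13). It became 0 with at most 5% mitochondrial UMIs, with doublets kept, at resolution 0.5, in Xist-positive cells lacking Y-linked UMIs, or without cluster 4, 7, 16 or 20. The settings by sub-group, by left-out mesenchyme cluster and with the Pax2-high cells included were chosen after seeing the data. Thinning and the limit of 2000 UMIs gave no value where fewer than 20 UMIs remained. Cell number limits the ciliary margin-like cells most (13 and 20 cells), and depth the RPE-like cells (medians of 7351 and 4199 UMIs).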
